A study of Homo sapiens with 12 samples.

Results

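TRIM genes encode the tripartite motif family of proteins, and 71 of the 19919 genes in the deposited count table belong to it by their symbol, which is TRIM followed by a number and at most 1 letter. Transcripts were counted by RNA sequencing in Raji and Daudi, established lines of Burkitt lymphoma, a B cell tumour with deregulated MYC. In each line wild-type cells were set against cells in which FBXO11 had been disrupted, and the study's title ties FBXO11 to BCL6 as a target in this lymphoma. FBXO11 is an F-box protein that brings substrates to the SCF ubiquitin ligase. There were 4 libraries of each genotype for Raji and 2 of each for Daudi. The knockout cells carried LentiCRISPR v2, a lentiviral vector for Cas9 and a guide against exon 4 of FBXO11, and were selected with puromycin and grown from single cells, so that each knockout line is a clone. The labels do not say whether the wild-type cells had been transduced or cloned, which clone or guide each knockout library holds, or whether replicates came from separate cultures. The p-values rest on the spread between libraries, part of which may be technical.

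TRIM proteins share a RING domain, B-box zinc fingers and a coiled coil, and most are ubiquitin ligases whose C-terminal domain chooses the target. Several act in the cell's own defence against viruses, and their genes are switched on by interferon through factors such as IRF9 that bind the interferon-stimulated response element (ISRE) in promoters. Others serve in every cell, such as TRIM28, the corepressor that KRAB zinc finger proteins recruit to silence chromatin. The family was described as a list of 10 interferon-induced genes (TRIM5, TRIM14, TRIM21, TRIM22, TRIM25, TRIM26, TRIM34, TRIM38, TRIM56 and TRIM69) and the other 61 genes.

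Promoters of the interferon-induced members were searched for 2 motifs, the ISRE core and the gamma-activated sequence (GAS), since interferon acts through them. RefSeq promoter windows (GRCh38.p14, 300 bases, 250 before and 50 after a transcription start) were matched by symbol for 56 of the 71 genes and for 9 of the 10 on the list, all but TRIM22. The ISRE core, GAAA followed after any 2 bases by GAAA on either strand, was present in 6 of these 9 (66.7%: TRIM5, TRIM14, TRIM21, TRIM26, TRIM34 and TRIM69). It was present in 4 of 47 other TRIM genes (8.51%: TRIM2, TRIM16, TRIM44 and TRIM64C) and in 4.38% of 27305 RefSeq genes. GAS, TTCNNNGAA on either strand, was found in 0 of the 9, in 12 of the 47 and in 9.38% of all genes. A match is a description of these letters in this window and not a measured binding site. In TRIM69 the match began 62 bases before the start, in TRIM14 26 bases before, in TRIM5 27 bases before and in TRIM34 90 bases before. TRIM21 held 2 overlapping matches 17 and 23 bases after its start, and TRIM26 held 2 overlapping matches 194 and 188 bases before its start. The windows of 4 genes are shown 5′ to 3′ along the gene's strand, with the ISRE core in capitals: TRIM69 and TRIM14 passed the test in Daudi, TRIM21 had the largest change of those that did not, and TRIM26 the smallest change on the list. In TRIM21 the element reads as searched, and in the other 3 it lies on the opposite strand and is seen as its reverse complement. These windows are chr15:44736278-44736577 (plus strand), chr9:98119173-98119472 (minus), chr11:4393653-4393952 (minus) and chr6:30213357-30213656 (minus).
TRIM69: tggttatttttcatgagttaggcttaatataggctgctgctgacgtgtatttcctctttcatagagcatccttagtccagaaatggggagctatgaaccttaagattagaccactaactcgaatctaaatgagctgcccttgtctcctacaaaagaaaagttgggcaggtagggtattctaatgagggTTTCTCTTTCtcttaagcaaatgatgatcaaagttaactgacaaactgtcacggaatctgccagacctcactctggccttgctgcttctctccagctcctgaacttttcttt
TRIM14: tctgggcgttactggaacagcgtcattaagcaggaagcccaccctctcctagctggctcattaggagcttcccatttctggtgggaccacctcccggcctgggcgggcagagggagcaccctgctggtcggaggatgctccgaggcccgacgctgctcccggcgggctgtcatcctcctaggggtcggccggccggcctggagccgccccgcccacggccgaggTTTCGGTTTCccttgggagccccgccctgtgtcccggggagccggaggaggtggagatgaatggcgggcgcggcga
TRIM21: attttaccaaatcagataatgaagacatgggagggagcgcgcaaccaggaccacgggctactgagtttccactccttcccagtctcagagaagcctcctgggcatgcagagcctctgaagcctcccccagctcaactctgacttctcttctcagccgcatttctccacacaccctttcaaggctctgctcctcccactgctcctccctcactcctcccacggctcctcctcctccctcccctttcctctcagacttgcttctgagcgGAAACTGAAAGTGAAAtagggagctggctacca
TRIM26: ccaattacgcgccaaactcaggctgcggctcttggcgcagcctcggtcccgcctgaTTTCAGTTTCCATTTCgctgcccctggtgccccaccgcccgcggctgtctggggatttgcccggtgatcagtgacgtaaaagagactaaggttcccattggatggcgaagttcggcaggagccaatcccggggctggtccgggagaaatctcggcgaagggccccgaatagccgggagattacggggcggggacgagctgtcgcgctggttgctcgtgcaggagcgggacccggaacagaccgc

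Total counts ran from 11.2M to 23.6M per library. Levels are given in CPM (counts scaled to a common library size, here by TMM), and the limit of 3 counts came to between 0.118 and 0.275 CPM, for counting error only. FBXO11 itself in Raji wild type was counted at 118, 68.6, 88 and 83.0 CPM, and in Raji knockout at 72.1, 70.6, 34.1 and 47.9 CPM. It was at 81.8 and 51.7 CPM in Daudi wild type and 88.4 and 92.8 CPM in Daudi knockout, and it passed the test in neither line (adjusted p = 0.208 and 0.646). Disruption of an exon by small insertions or deletions need not lower the transcript, so these counts do not check the labels. All 6 B cell markers were present in every group, while the 4 T cell markers summed to at most 2.59 CPM in any library. CD2 and CD8A were at 0 throughout, and CD3E was at 0.0415 and 0.988 CPM in Daudi wild type and 1.89 and 2.59 CPM in Daudi knockout. Raji wild-type replicates 3 and 4 resembled each other more than any other pair (chi-square per degree of freedom 2.18, against 21.9 to 171). Raji knockout replicates 1 and 2 stood apart from replicates 3 and 4, and 22 of 42 tested TRIM genes (52.4%) kept these pairs separate, against 61.5% of all tested genes.

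Of the 71 TRIM genes, 42 had enough counts to be tested, 10 on the interferon-induced list and 32 off it. Of the 29 not tested, 15 were at 0 in all 12 libraries, 7 had 1 to 5 counts in all libraries together, and 7 had more, up to 33 (TRIM47). Through Raji alone TRIM7, TRIM9, TRIM55 and TRIM61 passed the low-count filter, and through Daudi alone TRIM31, TRIM46, TRIM68 and TRIM74. For these 8 the filter favoured a difference between lines, so their tests between lines support nothing. In each contrast between lines 6 of them were called. TRIM31 reached the filter's level in Daudi wild type only, so a lower level with knockout had to appear and its test there supports nothing. Per kilobase of exon, TRIM28 was the most abundant member with a mean of 107 CPM per kilobase over the 12 libraries. It was followed by TRIM22 (28.5), TRIM14 (24.6), TRIM26 (17.6) and TRIM65 (17.2), the last a ligase for the RNA sensor IFIH1. In Raji wild type TRIM22 stood at 4.71 CPM per kilobase beside 109 for TRIM28. In Daudi wild type the means were 129 ± 92.5 for TRIM22 and 112 ± 29.9 for TRIM28 (SD, n = 2). Replicate 1 was 3.05 times replicate 2 for TRIM22 and 0.681 times for TRIM28, so the order of these genes in Daudi wild type is uncertain. Daudi wild-type replicate 1 held the largest share of its counts in TRIM genes, 0.488%, against 0.304% in replicate 2, 0.254% and 0.264% in Daudi knockout and 0.182% to 0.208% in Raji.

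**Figure D1:**
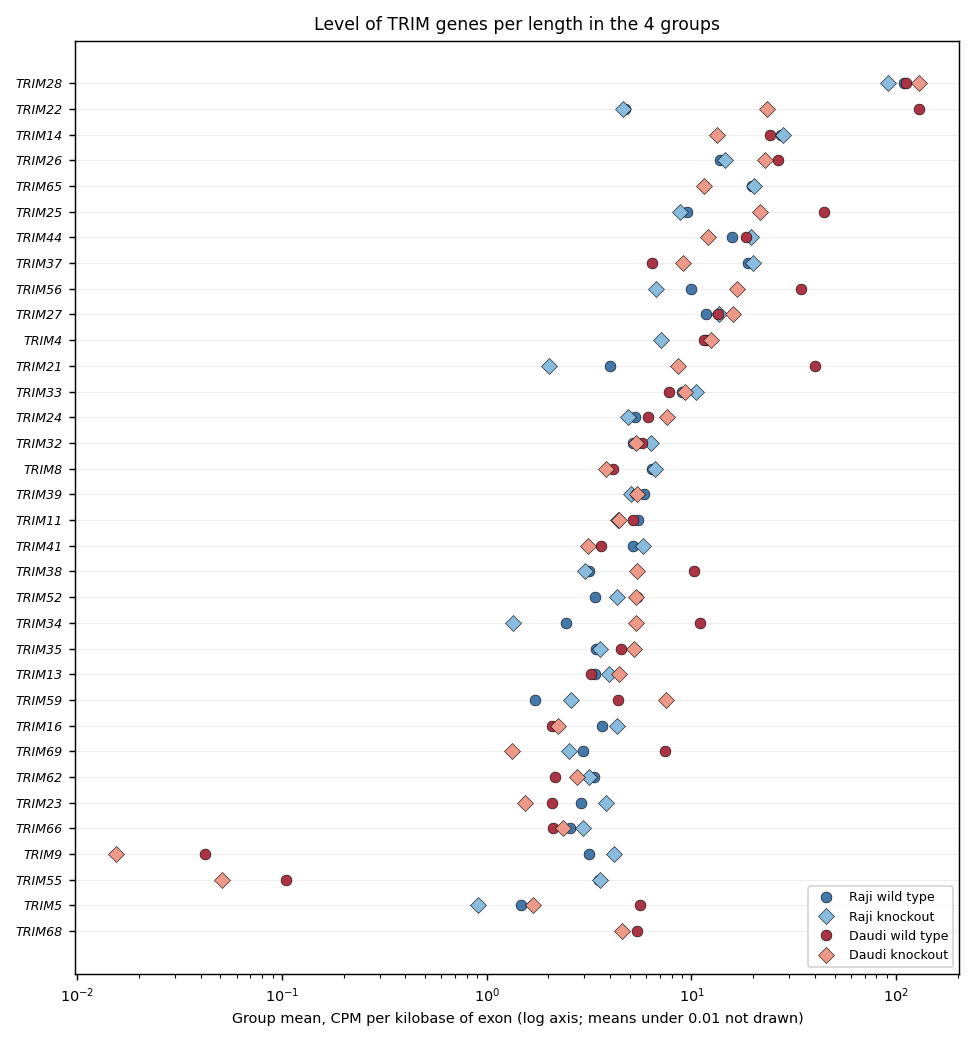
Group mean levels of TRIM genes in CPM per kilobase of exon (log axis), for the genes with a mean of at least 1 over all libraries; circles are wild type, diamonds knockout, blue Raji and red Daudi. Most genes keep their 4 marks close together, while TRIM22, TRIM25, TRIM56 and TRIM21 are farthest right in Daudi wild type and TRIM9, TRIM55 and TRIM68 are split by line.

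In Daudi, 3 of the 10 interferon-induced TRIM genes fell in the FBXO11 knockout, most of all TRIM22 and TRIM69. Across the family 5 of 42 genes passed the test (11.9%, against 2.62% of all 12027 genes tested): TRIM14, TRIM22, TRIM31 and TRIM69 fell and TRIM59 rose. Without TRIM31, whose fall the filter decided, it was 4 of 41 (9.76%). On the interferon-induced list 3 of 10 fell (TRIM14, TRIM22 and TRIM69), 0 rose and 7 did not pass. Of all genes 1.82% fell and 0.798% rose. On a shorter list of 7, without TRIM26, TRIM56 and TRIM69, 2 fell (TRIM14 and TRIM22). In each of the 10 both knockout libraries lay below both wild-type libraries, a pattern that 19.6% of all tested genes showed, with 20.0% showing the opposite. The list's median log2 change was -1.04, beside 0.00 for all genes. The number of TRIM genes called rested on single libraries: without wild-type replicate 1 it was 1 (TRIM69), without wild-type replicate 2 it was 10, without knockout replicate 1 it was 1 (TRIM69), and without knockout replicate 2 it was 0. In a fit of the 4 Daudi libraries alone it was also 0. Without wild-type replicate 1 the list's median was -0.57, and without replicate 2 it was -1.48. In bulk RNA, fewer cells that express a gene and less RNA per cell cannot be told apart.

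TRIM22, which restricts transcription of retroviruses, lies on chromosome 11 from 5689689 to 5737089 (plus strand, GRCh38). It was counted at 1170 and 383 CPM in Daudi wild type and at 169 and 112 CPM in Daudi knockout, so the groups did not overlap and the wild-type replicates differed from each other. The fall was 5.54-fold (log2 change -2.47, SE 0.47, adjusted p = 0.0179). It was lost without wild-type replicate 1, knockout replicate 1 or knockout replicate 2, where the smallest log2 change was -1.45 and the adjusted p was up to 0.230. TRIM69, a RING ligase that acts against RNA viruses, lies on chromosome 15 from 44728988 to 44767829 (plus strand). It fell from 95.7 and 42.5 CPM to 15.0 and 9.47 CPM, with no overlap (5.64-fold, log2 change -2.5, SE 0.37, adjusted p = 0.0054). This call was lost only without knockout replicate 2 among the 12 fits that left out 1 library (adjusted p = 0.0939). TRIM14 lacks a RING domain and works as an adaptor of MAVS, the mitochondrial antiviral signalling protein. Its gene occupies chromosome 9, 98069275 to 98119212 (minus strand). TRIM14 was at 154 and 110 CPM in wild type and 84.1 and 61.8 CPM in knockout (1.81-fold lower, log2 change -0.86, SE 0.20, adjusted p = 0.0426). NANS on the other strand overlaps 7.72% of its exonic bases, and the library kit does not mark the strand. In Daudi NANS had a log2 change of -0.20 (edgeR adjusted p = 0.831). What NANS adds to the TRIM14 count was not tested. TRIM14 passed in 2 of the 12 fits that left out 1 library, and its adjusted p was up to 0.40 in the others. It passed with DESeq2 (0.00125) and not with limma-voom (0.102).

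The 7 members that did not pass by edgeR had lower values in knockout as well. DESeq2 called 4 of them lower: TRIM21, TRIM5 (adjusted p = 0.0272), TRIM25 (0.0296) and TRIM56 (0.0215). Of these, limma-voom called TRIM21 and not TRIM5, TRIM25 or TRIM56. Over the 12 edgeR fits without 1 library, the smallest log2 changes were -1.49 for TRIM21, -0.76 for TRIM5, -0.45 for TRIM25 and -0.35 for TRIM56. TRIM21, the cytosolic antibody receptor, was at 108 and 46.6 CPM in wild type and 19.3 and 14 CPM in knockout (log2 change -2.22, SE 0.56, adjusted p = 0.0608). It passed with DESeq2 (adjusted p = 0.00338) and limma-voom (0.0103). TRIM5, the retroviral capsid restriction factor, was at 40.1 and 13.6 CPM in wild type and 7.45 and 8.64 CPM in knockout (log2 change -1.74, adjusted p = 0.123). TRIM34, a close relative of TRIM5, was at 37.9 and 21.0 CPM against 13.5 and 15.3 CPM (-1.03, adjusted p = 0.189). A readthrough transcript, TRIM6-TRIM34, covers 83.0% of the exonic bases of TRIM34 and was itself listed at 0 in every library, so reads may have been shared between them. TRIM25, which ubiquitinates the RNA sensor RIG-I, was at 564 and 282 CPM against 200 and 212 CPM (-1.04, adjusted p = 0.118). TRIM56, an RNA-binding antiviral ligase, was at 531 and 237 CPM against 187 and 186 CPM (-1.04, adjusted p = 0.102). TRIM38, a brake on Toll-like receptor signalling, was at 126 and 68.2 CPM against 51.3 and 50.1 CPM (-0.93, adjusted p = 0.138). In these 6 genes the knockout libraries lay closer together than the wild-type libraries, and so they did in TRIM26. TRIM26 had the smallest change of the 7: it was at 111 and 121 CPM in wild type and 101 and 99.4 CPM in knockout (-0.21, adjusted p = 0.744).

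The 2 Daudi wild-type libraries were not alike for these genes. Replicate 1 exceeded replicate 2 in 9 of the 10, all but TRIM26, beside 54.7% of all tested genes, and by more than 2 times in 6 of them, beside 13.5%. The median ratio over the list was 2.12. The 10 genes summed to 2938 and 1325 CPM in Daudi wild type and 847 and 769 CPM in Daudi knockout. The other TRIM genes summed to between 1426 and 1658 CPM in all 12 libraries, with no separation of the groups. Among markers of other cell types, the 5 myeloid genes summed to 59.8 and 30.9 CPM in Daudi wild type and 14.2 and 21.3 CPM in Daudi knockout, so the sum too was highest in wild-type replicate 1. CSF1R was at 25.6 and 23.6 CPM against 6.39 and 12.7 CPM, and CD68 at 27.7 and 1.28 CPM against 0.513 and 0.236 CPM. LYZ was at 2.90 and 4.35 CPM against 5.01 and 4.20 CPM, ITGAM at 3.57 and 1.53 CPM against 2.05 and 4.09 CPM, and the defining marker CD14 did not exceed 0.276 CPM. The part of these transcripts in the result was not tested.

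**Figure D2:**
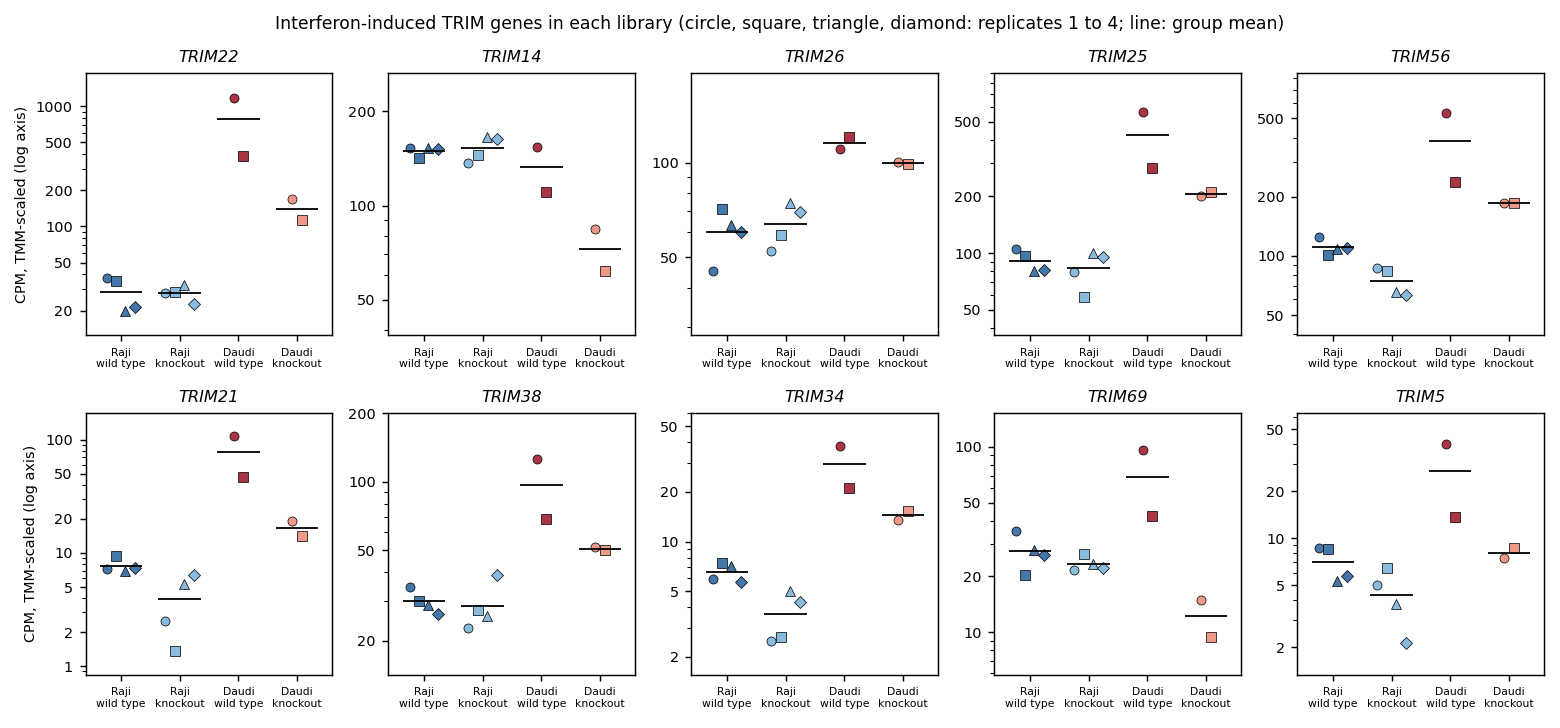
CPM (log axis) of the 10 interferon-induced TRIM genes in each library, by line and genotype; marks are libraries and lines group means. In Daudi both knockout libraries lie below both wild-type libraries in each of the 10 panels, and replicate 1 (circle) is the higher wild-type library in all panels but that of TRIM26.

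In Raji the same 10 genes showed no called change. By edgeR 0 of 10 passed, with 3 at an unadjusted p under 0.05, while DESeq2 called 1 lower (TRIM34) and limma-voom called 3 lower (TRIM21, TRIM34 and TRIM56). The background of edgeR calls in Raji was 2.60% of all genes, 0.923% higher and 1.68% lower. No such share is given here for DESeq2 or limma-voom, so their counts are a description. The list's median log2 change was -0.18, beside 0.01 for all genes, with 8 of 10 values negative. All knockout libraries lay below all wild-type libraries in TRIM21, TRIM34 and TRIM56, 3 of 10, and above them in 0 of 10, patterns of 5.99% and 5.80% of all genes. TRIM21 was at 7.16, 9.44, 6.99 and 7.38 CPM in wild type and 2.5, 1.35, 5.34 and 6.36 CPM in knockout (log2 change -0.98, SE 0.41, adjusted p = 0.263). TRIM34 was at 5.91, 7.43, 7.15 and 5.66 CPM against 2.5, 2.64, 5.03 and 4.33 CPM (-0.85, SE 0.27, adjusted p = 0.130). In both genes knockout replicates 1 and 2 were the lowest. TRIM56 was at 124, 101, 108 and 109 CPM against 86.8, 83.8, 65.6 and 63.1 CPM (-0.57, SE 0.21, adjusted p = 0.212), where replicates 3 and 4 were the lowest.

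The remaining list members had overlapping groups in Raji. TRIM22 was at 37.0, 35.0, 19.9 and 21.5 CPM in wild type and 27.8, 28.5, 32.8 and 22.6 CPM in knockout (log2 change -0.02, adjusted p = 1). TRIM69 was at 35.1, 20.4, 27.7 and 26.2 CPM against 21.6, 26.3, 23.3 and 22.2 CPM (-0.23, adjusted p = 0.737). TRIM14 ranged from 142 to 152 CPM in wild type and from 137 to 165 CPM in knockout (0.03, adjusted p = 0.972). TRIM5, TRIM25, TRIM26 and TRIM38 had log2 changes of -0.69, -0.13, 0.09 and -0.06, with adjusted p-values of 0.422, 0.868, 0.872 and 0.944. The 4 values nearest 0 (TRIM14, TRIM22, TRIM26 and TRIM38) and that of TRIM25 changed sign in some alternative fits, so no direction is given for them.

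The difference between the lines' knockout effects was tested directly. All 10 interferon-induced genes had a more negative change in Daudi, with a median Raji minus Daudi difference of 0.90 beside 0.01 for all genes. By edgeR 1 of 10 passed the test (TRIM69), beside 0.773% of all genes, 0.474% in this direction and 0.299% in the other. On the shorter list of 7, which leaves out TRIM69, 0 passed. For TRIM69 the Raji minus Daudi difference in log2 change was 2.27 (SE 0.44, adjusted p = 0.0383). It was lost in 9 of the 12 fits without 1 library, with an adjusted p up to 0.245, and also when Raji wild-type replicates 3 and 4 were summed (0.0998). For TRIM22 the difference was 2.45 (SE 0.56, adjusted p = 0.0731), and it passed with DESeq2 (0.00129) and limma-voom (0.0175). For TRIM14 it was 0.89 (SE 0.24, adjusted p = 0.130), and it passed with DESeq2 and not with limma-voom. Off the list 0 of 32 genes passed by edgeR, with 3 at an unadjusted p under 0.05, while DESeq2 called 0 and limma-voom called TRIM31, 1 of the genes that passed the filter through Daudi alone.

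**Figure D3:**
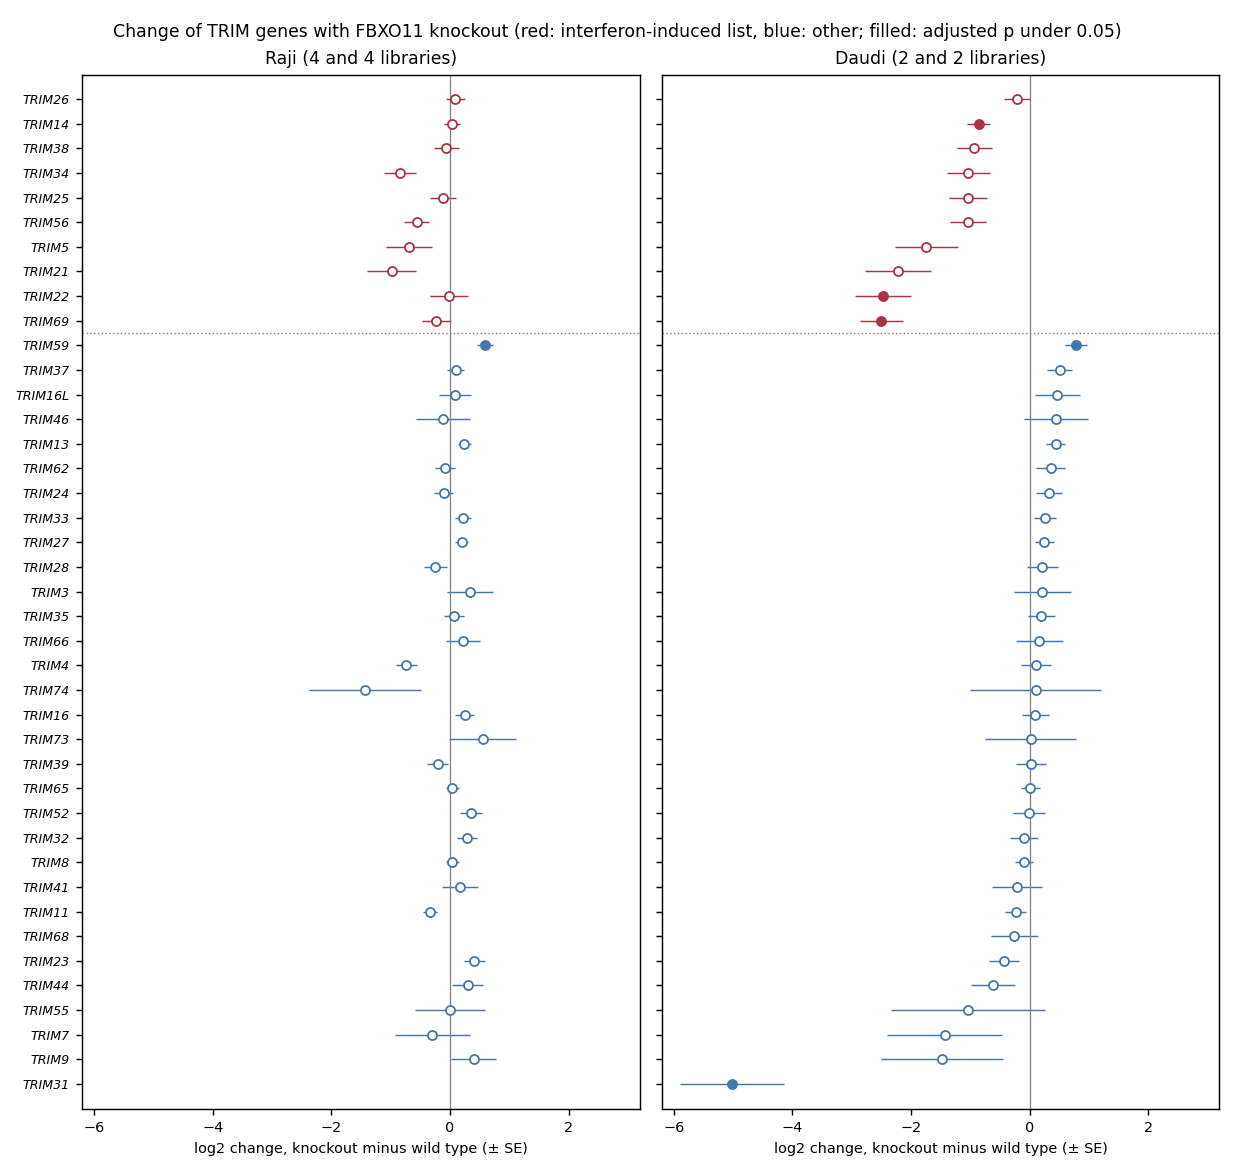
log2 change of each tested TRIM gene with FBXO11 knockout, with its standard error, in Raji (left) and Daudi (right); red marks are the interferon-induced list, blue the other genes, and filled marks have an adjusted p under 0.05. TRIM61 is left out, as are TRIM31 and TRIM68 in Raji, where both groups held at most 3 counts. In Daudi the 10 red marks lie left of 0 with a median of -1.04. The blue marks scatter around 0, with TRIM31 at -5.02, TRIM9 at -1.48 and TRIM7 at -1.43 farthest left.

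Genes that carry, sense or answer the interferon signal were set beside the TRIM genes. Of 24 listed partners 23 had enough counts to be tested, and in Daudi knockout 12 fell, 0 rose and 11 did not pass by edgeR, beside 1.82% of all genes that fell and 0.798% that rose, with a median log2 change of -2.22. DESeq2 called 11 lower and IFNAR2, a chain of the interferon receptor, higher, and limma-voom called 11 lower. The 3 with the smallest p were the RNA sensor IFIH1 (-4.41, adjusted p = 0.00145), the ubiquitin-like modifier ISG15 (-5.56, adjusted p = 0.00186) and IFIT3, a member of the IFIT complex on foreign RNA (-7.33, adjusted p = 0.00221). As in TRIM22 and TRIM69, wild-type replicate 1 was the higher of the pair in each of these 3 genes. It exceeded replicate 2 in 19 of the 23, and by more than 2 times in 14, beside 54.7% and 13.5% of all tested genes. The 23 genes summed to 8357 and 3408 CPM in Daudi wild type and 1232 and 1034 CPM in Daudi knockout. Fits without 1 library are not given for these partners. In Raji 0 of 23 passed by edgeR, with 5 at an unadjusted p under 0.05, while DESeq2 called 1 higher and 2 lower and limma-voom called 4 higher and 4 lower. The difference between the lines passed in 6 of 23 by edgeR, all in the direction of 0.474% of all genes, among them IFIH1 (4.54, adjusted p = 0.00545). IFIT3 was also low in Raji knockout, at 0.0446, 0, 0.552 and 0.534 CPM against 3.70, 1.56, 2.40 and 2.61 CPM in wild type (-3.20, adjusted p = 0.0626).

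PML, a TRIM protein under another symbol that builds nuclear bodies and is itself interferon-induced, was at 301 and 100 CPM in Daudi wild type and 42.4 and 36.8 CPM in knockout. It fell by 2.34 on the log2 scale (SE 0.41, adjusted p = 0.0115), and its fits without 1 library are not given. In Raji it was at 27.1, 41.4, 34.5 and 32.6 CPM in wild type and 26.1, 24.8, 27.6 and 36.7 CPM in knockout, with overlap (log2 change -0.23, adjusted p = 0.776). The difference between the lines did not pass by edgeR (2.11, SE 0.49, adjusted p = 0.0740), while DESeq2 and limma-voom called it. Of the other 5 such genes 4 were not tested (MEFV, MID2, TRIML1 and TRIML2), and MID1 passed in neither line.

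Off the interferon-induced list, edgeR called few TRIM genes with knockout. In Raji 1 of 32 rose (TRIM59) and 0 fell, beside 0.923% and 1.68% of all genes. In Daudi 1 rose (TRIM59, beside 0.798%) and 1 fell (TRIM31). The medians over the 32 were 0.09 in Raji and 0.06 in Daudi. By protein class, the NHL-repeat genes (2 of 4 tested), the COS and FN3 genes of the cytoskeleton (3 of 7 tested) and the near-identical copies (4 of 15 tested) had 0 calls in either line by edgeR, DESeq2 or limma-voom and 0 at an unadjusted p under 0.05. Of genes with transmembrane, MATH, ARF and other C-terminal domains, 6 of 8 were tested and TRIM59 was the 1 called in each line by edgeR and by DESeq2. In that class limma-voom called TRIM23, TRIM44 and TRIM59 higher in Raji and 0 in Daudi, where TRIM59 had an adjusted p of 0.130. In Raji the single call was lost without any 1 of wild-type replicates 1 to 4, knockout replicates 1 to 3 or Daudi knockout replicates 1 and 2. Without knockout replicate 1 its place was taken by TRIM4, and without either Daudi wild-type library 3 TRIM genes passed (TRIM4, TRIM56 and TRIM59).

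TRIM59, a membrane-anchored TRIM protein, was the 1 member to rise in both lines. Its gene occupies chromosome 3, 160432445 to 160485773 (minus strand). In Raji it was at 12.9, 13.0, 14.6 and 13.5 CPM in wild type and 18.6, 24.8, 19.8 and 18.1 CPM in knockout, with no overlap (1.5-fold, log2 change 0.59, SE 0.13, adjusted p = 0.0343). In Daudi it was at 35.3 and 33.5 CPM in wild type and 60.6 and 57.8 CPM in knockout, again with no overlap (1.72-fold, 0.78, SE 0.18, adjusted p = 0.0415). The call was lost in 9 of 12 fits without 1 library in Raji (adjusted p up to 0.120) and in 10 of 12 in Daudi (up to 0.229), while the log2 change stayed between 0.48 and 0.64 in Raji and between 0.75 and 0.82 in Daudi. The difference between the lines did not pass (-0.19, SE 0.22, adjusted p = 0.787). The library kit does not mark the strand, 19.8% of the exonic bases of TRIM59 overlap SMC4 on the other strand, and 14.5% overlap a readthrough gene with IFT80 on the same strand. Log2 changes of SMC4 were 0.28 in Raji and 0.33 in Daudi (adjusted p = 0.604 and 0.697), and those of IFT80 were 0.63 and 0.59 (adjusted p = 0.0915 and 0.298). What these neighbours add to the TRIM59 count was not tested.

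TRIM31, which drives aggregation of MAVS, was close to absent outside Daudi wild type. It passed the low-count filter through that group alone, so its test against the knockout was bound to show a fall and is given as a description. Its gene occupies chromosome 6, 30102897 to 30113106 (minus strand). It was at 4.31 and 2.47 CPM in Daudi wild type and 0.0789 and 0.118 CPM in Daudi knockout, or 154 counts against 5. The ratio of these totals, scaled for library size, was 35.3 (95% interval 14.8 to 110, counting error only), and the edgeR log2 change was -5.02 (SE 0.87, adjusted p = 0.0212). This call was lost without Daudi wild-type replicate 1, knockout replicate 1 or knockout replicate 2, with an adjusted p up to 0.230. In Raji wild type TRIM31 had 0 counts, which puts Daudi wild type at least 74.1-fold higher with 3 counts as the floor over the group, and Raji knockout had 1 count. An antisense gene, TRIM31-AS1, covers 4.92% of its exonic bases, and reads of the 2 cannot be told apart.

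TRIM4, which ubiquitinates RIG-I, in Raji wild type was at 59.6, 49.1, 59.9 and 62.0 CPM and in Raji knockout at 45.1, 37.6, 27.1 and 28.5 CPM. The groups did not overlap, and replicates 3 and 4 were the lowest (log2 change -0.74, SE 0.18, adjusted p = 0.0559). It passed with DESeq2 (0.00381) and limma-voom (0.00179), and in 3 of 12 fits without 1 library. In Daudi TRIM4 was at 66.3 and 46.4 CPM in wild type and 57.4 and 64.2 CPM in knockout (0.11, adjusted p = 0.903).

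Chromatin regulators of the family, led by TRIM28, did not pass edgeR's test in either line. TRIM28 in Raji wild type was at 314, 565, 455 and 421 CPM and in Raji knockout at 322, 336, 442 and 378 CPM (log2 change -0.25, SE 0.19, adjusted p = 0.608). In Daudi it was at 365 and 535 CPM in wild type and 503 and 542 CPM in knockout (0.22, SE 0.27, adjusted p = 0.796). TRIM24, a reader of histone marks and ligase of p53, had changes of -0.11 in Raji and 0.32 in Daudi (adjusted p = 0.820 and 0.570). TRIM33, a regulator of SMAD signalling, had changes of 0.22 and 0.26 (adjusted p = 0.465 and 0.593). TRIM66 of the same class had changes of 0.22 and 0.16 (adjusted p = 0.801 and 0.911). In this class of 4 genes edgeR and DESeq2 called 0 in either line, edgeR gave 0 at an unadjusted p under 0.05, and limma-voom called TRIM33 and TRIM66 higher in Raji. Among 11 partners of TRIM28 in silencing, such as the histone methyltransferase SETDB1, edgeR called 0 in either line, with 1 in each at an unadjusted p under 0.05. DESeq2 called CHD3 higher in Raji and limma-voom called ATF7IP, CHD3 and MORC3 higher there, and both called 0 in Daudi. TRIM24 separated the Raji knockout pairs, at 53.6 and 55.2 CPM in replicates 1 and 2 and 36.8 and 35.9 CPM in replicates 3 and 4.

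TRIM27, a ligase of the endosome and nucleus, had log2 changes of 0.20 in Raji and 0.25 in Daudi (adjusted p = 0.455 and 0.545). TRIM37, the peroxisome and centrosome ligase mutated in mulibrey nanism, was at 26.5 and 43.5 CPM in Daudi wild type and 51.9 and 47.7 CPM in Daudi knockout (0.51, SE 0.21, adjusted p = 0.278). TRIM16L was the next largest rise in Daudi (0.47, adjusted p = 0.657). Off the interferon-induced list the next largest falls there after TRIM31 were TRIM9 (-1.48, SE 1.03, adjusted p = 0.580), which rested on 18 counts in wild type and 7 in knockout, and TRIM7 (-1.43, SE 0.97, adjusted p = 0.567). In Raji, among genes off the list with more than 3 counts in either Raji group, the largest values besides TRIM59 and TRIM4 belonged to the near-identical copies TRIM74 (-1.43, SE 0.94, adjusted p = 0.526) and TRIM73 (0.55, SE 0.57, adjusted p = 0.727), whose reads the counting could split between them. Among 8 ubiquitin-conjugating enzymes that work with TRIM ligases edgeR called 0 in either line, with 4 in Raji and 1 in Daudi at an unadjusted p under 0.05. DESeq2 called 3 of them in Raji and 1 in Daudi, and limma-voom called 5 and 0. These counts stand without a share over all genes, so they are not read as a result about these enzymes.

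Many TRIM genes differed between the lines, as did many of all tested genes. Between the wild types 25 of 42 passed, 9 higher and 16 lower in Raji, beside 45.1% of all tested genes (20.3% higher and 24.8% lower). Between the knockouts 26 passed, 11 higher and 15 lower, beside 42.2% (19.7% and 22.5%). Without the 8 genes that passed the filter through 1 line, 19 and 20 of 34 passed (55.9% and 58.8%). Off the interferon-induced list, with those 8 genes included, 16 of 32 passed between the wild types (50%) and 17 of 32 between the knockouts (53.1%). These shares lie nearer to those of all genes than that of the interferon-induced list, 90% in both contrasts. Of the interferon-induced genes 9 of 10 were lower in Raji wild type than in Daudi wild type, all but TRIM14 (0.17, adjusted p = 0.438). The gap was widest for TRIM22 (27.4-fold, log2 difference -4.78, SE 0.39, adjusted p = 2.37e-06) and TRIM21 (10.0-fold, -3.33, SE 0.46, adjusted p = 1.29e-04). Differences for TRIM25, TRIM34, TRIM5, TRIM56, TRIM38, TRIM69 and TRIM26 ran from -2.22 to -0.95. Those of TRIM5 and TRIM69 were lost without Daudi wild-type replicate 1 (adjusted p = 0.137 and 0.106).

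Between the knockout groups 7 of the 10 were still lower in Raji, TRIM22 by 2.33 on the log2 scale (SE 0.37, adjusted p = 4.20e-04) and TRIM21 by 2.09 (SE 0.47, adjusted p = 0.00349). TRIM34, TRIM56, TRIM25, TRIM38 and TRIM26 had differences from -1.99 to -0.65, and that of TRIM5 did not pass (-0.89, adjusted p = 0.131). Those of TRIM26 and TRIM38 were lost without either Daudi knockout library, and that of TRIM38 also without Raji knockout replicate 3 (adjusted p up to 0.0784 and 0.0872). TRIM14 (1.06, SE 0.18, adjusted p = 5.72e-04) and TRIM69 (0.93, SE 0.32, adjusted p = 0.0342) were higher in Raji knockout than in Daudi knockout. TRIM69 thus stood below Daudi in the wild types (-1.34, SE 0.29, adjusted p = 0.0029) and above it in the knockouts, the latter lost without Raji wild-type replicate 3, Raji knockout replicate 2 or 3, or Daudi knockout replicate 2 (adjusted p up to 0.268).

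A few TRIM genes were counted in 1 line and nearly absent from the other, with either genotype. Since TRIM68, TRIM9, TRIM55, TRIM61 and TRIM46 passed the filter through 1 line, their differences are a description. TRIM68, a coactivator of the androgen receptor, has its gene on chromosome 11, 4598672 to 4608259 (minus strand). It was at 29.3 and 17.3 CPM in Daudi wild type and 19.9 and 19.2 CPM in Daudi knockout, while the 8 Raji libraries held 1 count together. Between the wild types the ratio was 1524 (95% interval 273 to 60250, counting error only), and Daudi knockout was at least 470-fold higher than Raji knockout, with 3 counts as the floor over the group. TRIM9, a neuronal ligase that answers netrin, in Raji wild type was at 22.1, 26.5, 32.0 and 32.8 CPM and in Raji knockout at 29.7, 27.1, 47.6 and 45.0 CPM. In Daudi it was at 0.705 and 0.0494 CPM in wild type and 0 and 0.275 CPM in knockout (log2 differences of 6.14 between wild types and 8.02 between knockouts). TRIM55, a muscle RING finger protein of the sarcomere, in Raji wild type was at 24.0, 2.29, 8.85 and 8.65 CPM and in Raji knockout at 12.1, 12.5, 3.81 and 15.4 CPM, and below 0.5 CPM in each Daudi library. Its wild-type values in Raji spread over more than 10-fold, and the log2 differences between lines were 5.03 and 6.07. TRIM61 was at 0.744 to 1.69 CPM in the 8 Raji libraries and had 0 counts in Daudi, at least 20.1-fold higher in Raji wild type and 16.4-fold in Raji knockout by the same floor. A gene on the same strand overlaps 33.2% of its exonic bases.

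TRIM3, an NHL-repeat ligase of neurons, was at 0.733 to 2.37 CPM in Raji, and at 13.7 and 8.70 CPM in Daudi wild type and 12.2 and 13.8 CPM in Daudi knockout (log2 differences -3.17 and -3.04, adjusted p = 1.04e-04 and 1.37e-04). TRIM46, which organises microtubules of the axon, had log2 differences of -2.43 and -2.99, though at most 3.42 CPM in any library. TRIM59 was lower in Raji by 1.35 between wild types and 1.54 between knockouts, so that its rise with knockout in Raji, to 20.3 ± 3.09 CPM (SD, n = 4), stayed under the wild-type level of Daudi, 34.4 ± 1.24 CPM (SD, n = 2). TRIM37 was higher in Raji, at 94.9 to 118 CPM against 26.5 to 51.9 CPM in Daudi (1.56 and 1.14, adjusted p = 5.94e-05 and 5.05e-04). TRIM65 (0.78 and 0.81), TRIM8 (0.65 and 0.78), TRIM16 (0.81 and 0.96) and TRIM16L (1.47 and 1.09) were higher in Raji with either genotype. Genes on the other strand overlap 11.1% of the exonic bases of TRIM37 and 14.1% of those of TRIM8. TRIM16 and TRIM16L are near-identical copies whose counts are uncertain. Between the wild types TRIM16 was lost without Daudi wild-type replicate 2 (adjusted p = 0.0501) and TRIM16L without replicate 1 (0.0516), and between the knockouts TRIM16L was lost without either Daudi knockout library (up to 0.167).

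Some of the differences between lines passed in 1 genotype only, and whether they differ between genotypes is the difference of knockout effects tested above. Between the wild types TRIM62 was higher in Raji (0.63, adjusted p = 0.0320), and TRIM52 (-0.67, adjusted p = 0.0292) and TRIM73 (-1.82, adjusted p = 0.0398) were lower. A gene on the other strand overlaps 28.5% of the exonic bases of TRIM52. Between the knockouts TRIM23, which carries an ARF GTPase domain, was higher (1.32, adjusted p = 8.89e-04), and TRIM4 (-0.81, adjusted p = 0.00943), TRIM24 (-0.63, adjusted p = 0.0160), TRIM35 (-0.54, adjusted p = 0.0470) and TRIM74 (-2.70, adjusted p = 0.0499, a gene that passed the filter through Daudi alone) were lower. The call of TRIM31 between lines also passed in the wild types only, where Raji had 0 counts. Each of these calls except that of TRIM23 and TRIM31 was lost without at least 1 library, with adjusted p-values up to 0.216 for TRIM62, 0.147 for TRIM52, 0.450 for TRIM73, 0.0787 for TRIM4, 0.0943 for TRIM24, 0.211 for TRIM35 and 0.374 for TRIM74.

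**Figure D4:**
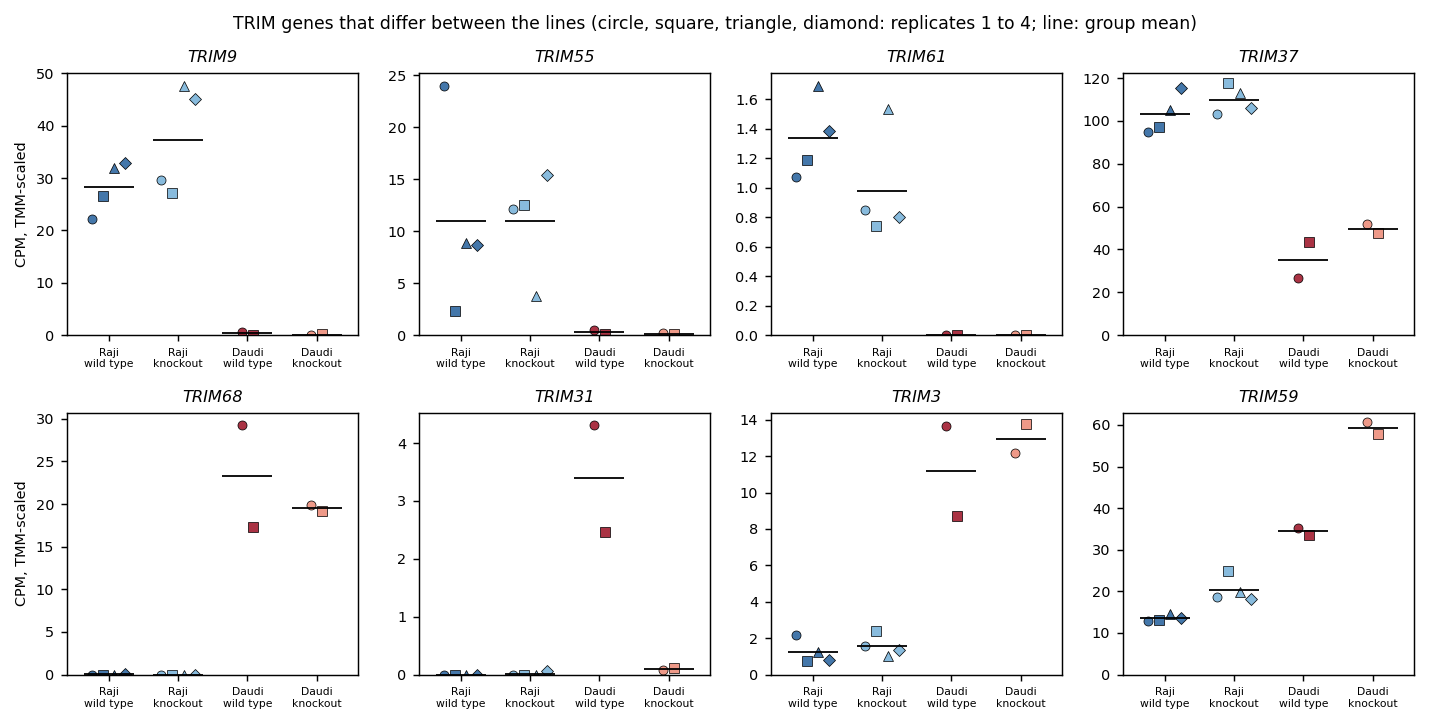
CPM (linear axis from 0) of 8 TRIM genes in each library, by line and genotype; marks are libraries and lines group means. TRIM9, TRIM55 and TRIM61 are at or near 0 in Daudi and TRIM68 and TRIM31 in Raji, while TRIM59 rises with knockout in both lines, to 59.2 CPM in Daudi.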

How the data were processed

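Gene expression was measured in 12 libraries, prepared from total RNA with the TruSeq v2 kit, per the labels' protocols; that kit does not mark the strand. For each gene and library the authors deposited raw counts as whole numbers. STAR 2.5.0, RSEM 1.3.0 and the GRCh38 build are named in the submitters' processing notes, without their roles. No source used here states how reads matching several genes were treated. Groups came from the line and genotype in the labels.

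These counts were analysed with edgeR 4.0.16 (R 4.3.3), which filtered genes with filterByExpr (12027 of 19919 kept), scaled libraries by TMM and fitted a robust quasi-likelihood model to all 12 libraries in 4 groups. The common biological coefficient of variation was 26.1% on 8 residual degrees of freedom. In all, 5 contrasts were tested with Benjamini-Hochberg adjustment over all tested genes, and an adjusted p under 0.05 was called. Levels are TMM-scaled CPM, compared between genes only per kilobase of exon (GENCODE 29). Alternatives were RLE scaling, DESeq2 1.42.0, limma-voom with quality weights (limma 3.58.1), no filter, each library left out, Raji wild-type replicates 3 and 4 summed, each line alone and a shorter interferon-induced list. Shares of all genes called are given for edgeR only. Counts of genes called by the other tools, or at an unadjusted p under 0.05, are therefore descriptions. Simulated counts had the same spread for all genes and the same base level in both lines. Changes were put only into genes with a mean expected count over 100. With 50 genes changed at each size, the test recovered 50% of 2-fold and 100% of 4-fold changes in Raji, and 18% and 92% in Daudi. Whether these shares hold for the TRIM genes, at lower counts or at the spread between the Daudi wild-type libraries, was not tested. In Daudi knockout, TRIM21 at 4.65-fold lower did not pass by edgeR (adjusted p = 0.0608), while TRIM22 (5.54-fold) and TRIM69 (5.64-fold) did.

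The members, gene lists and motifs were chosen with earlier results of these data known. Genes named were all that passed in any contrast, the interferon-induced list, the 5 highest per kilobase, the 3 largest off-list rises and falls per knockout contrast, TRIM24, TRIM27, TRIM28, TRIM33, TRIM37, and the 3 partners of smallest p per list. IFIT3 in Raji and the partners called by other tools were added after their values were seen. A gene withheld for evaluation is not reported here.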

Additional observations from a re-analysis of the deposited data

Results flagged for a closer look

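Dixon's criterion for a library that stands apart was applied to the 4 wild-type and the 4 knockout libraries of Raji for 34 named TRIM genes, 68 groups in all, and 7 exceeded its 95% critical value. Chance alone gives about 1 group in 20 where groups are independent and values normal. These groups share the same libraries, so their number is not compared with that rate. Among the interferon-induced genes, TRIM14 was low in Raji wild-type replicate 2 (142 CPM against 151 to 152 in the other 3), and TRIM21 was high in the same library (9.44 CPM against 6.99 to 7.38). TRIM52 was high in Raji wild-type replicate 1 (28.3 CPM against 19.8 to 20.9). TRIM23 was high in Raji knockout replicate 1 (20.9 CPM against 17.4 to 17.9), and TRIM61 in Raji knockout replicate 3 (1.53 CPM against 0.744 to 0.847). The remaining 2 were single counts: TRIM31 at 0.0534 CPM in Raji knockout replicate 4 and TRIM68 at 0.0555 CPM in Raji wild-type replicate 4, with 0 counts in the other 3 libraries of each group. A lone count among 0 values always exceeds the criterion.

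The knockout effect on TRIM69 differed between the lines by the interaction test (Raji minus Daudi 2.27 on the log2 scale, edgeR adjusted p = 0.0383). The 2 Daudi knockout libraries were both below the 2 Daudi wild-type libraries, and the Raji groups overlapped.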

How the results depend on the processing

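The number of TRIM genes called depended on the setting. The share of all genes called in each setting is not given here, so these counts describe the settings and not the family. For Raji, 1 by edgeR became 3 with DESeq2 and 11 with limma-voom (6 higher, 5 lower). It became 0 with no low-count filter, with Raji wild-type replicates 3 and 4 summed and with the Raji libraries alone, and it ran from 0 to 3 over the 12 fits that left out 1 library. For Daudi, 5 became 9 with DESeq2, 3 with no filter, 3 with those replicates summed and 0 with the Daudi libraries alone, and it ran from 0 to 10 without 1 library. The difference between the lines, 1 gene, became 3 with DESeq2, 3 with limma-voom and 0 with the replicates summed, and ran from 0 to 4 without 1 library. Counts between lines stayed within 1.5 times of 25 and 26 in every setting run. Only the wild-type libraries share letters across lines; with the letter as a replicate block, 24 genes passed between the wild types, and TRIM52 and TRIM62 did not pass (adjusted p = 0.0561 and 0.0624). No paired analysis was possible because the knockout libraries carry numbers of their own for the contrasts of genotype.

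The median change of the interferon-induced list in Daudi ran from -1.48 to -0.57 over the 12 fits without 1 library, and it was -1.04 on the shorter list of 7. In Raji it ran from -0.23 to -0.06. In Raji, changes near 0 turned their sign: with limma-voom TRIM14 was -0.041, TRIM22 0.40 and TRIM26 -0.047. Over the fits without 1 library, Raji changes ran from -0.0098 to 0.078 for TRIM14, from -0.17 to 0.14 for TRIM22, from -0.25 to 0.032 for TRIM38, from -0.23 to 0.0084 for TRIM25, from -0.023 to 0.17 for TRIM26 and from -1.81 to 0.24 for TRIM74. In Daudi, TRIM9 ran from -5.91 to 1.36. The cause of these shifts was not tested. RLE scaling moved the median of all genes by at most 0.01 in any contrast.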

Other observations

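The Raji knockout libraries fell into 2 pairs, replicates 1 and 2 and replicates 3 and 4, whose values did not overlap for 22 of the 42 tested TRIM genes (52.4%) and for 61.5% of all 12027 tested genes. The following were chosen after their values were seen and carry no test. TRIM44, which holds a zinc finger of deubiquitinating enzymes, was at 347 and 288 CPM in the first pair and 206 and 177 CPM in the second, with 156 to 277 CPM in Raji wild type. TRIM41, a RING ligase, was at 99.9 and 86.4 CPM against 57.1 and 53.8 CPM, with 53.6 to 92.2 CPM in wild type. TRIM9 went the other way, at 29.7 and 27.1 CPM against 47.6 and 45.0 CPM, with 22.1 to 32.8 CPM in wild type.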
